A study of Homo sapiens with 4 samples.

Results

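The miR-200 family was examined in small RNA libraries of PC-3, an androgen-receptor-negative prostate cancer cell line from a bone metastasis that is often described as mesenchymal-like. Members were the entries of the deposited table whose catalogue name is miR-200a, miR-200b, miR-200c, miR-141 or miR-429, with or without an arm suffix. That rule used names only and found 4 of the 1096 listed entries: miR-200b-3p, miR-200a-3p and miR-429 from the chromosome 1 cluster and miR-200c-3p from the chromosome 12 cluster. miR-141-3p, miR-141-5p, miR-200a-5p, miR-200b-5p and miR-200c-5p are not listed and were not analysed here. Of 511 hairpin names in the table, 5 had both arms listed, so a hairpin with 1 listed arm was the usual case.

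There were 2 groups of 2 libraries each, both from PC-3 cells grown in serum-containing medium. The control cells have the treatment label "none", and no vehicle is named in the labels. The other cells received apelin, the secreted peptide ligand of the G protein-coupled receptor APJ, at 10 µg/mL for 24 h. Whether the libraries of a group are from separate cultures is not stated in the labels, and p-values therefore reflect only how these 4 libraries vary, possibly for technical reasons.

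miR-200 miRNAs bind the mRNAs of ZEB1 and ZEB2, the transcription factors that shut off E-cadherin during epithelial-mesenchymal transition (EMT). ZEB1 in turn represses both miR-200 loci, which makes a feedback loop between the epithelial and mesenchymal states. A miRNA finds its targets mainly through its seed, bases 2 to 8 from the 5′ end, and the family holds a pair of seeds that differ at 1 base.

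The mature 3p sequences are shown because seed and locus divide the family in different ways. They are RefSeq sequences (GRCh38.p14), 5′ to 3′, with the seed in capitals, and RefSeq mature sequences were found for 8 of the 9 family names looked for. The first 3 carry the seed AAUACUG, and the last 2 carry AACACUG.
miR-200b-3p: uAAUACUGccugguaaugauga
miR-429: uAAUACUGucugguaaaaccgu
miR-200c-3p: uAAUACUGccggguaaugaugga
miR-200a-3p: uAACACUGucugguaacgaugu
miR-141-3p: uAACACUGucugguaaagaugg
Each seed therefore occurs in both clusters, and no other listed catalogue miRNA with a RefSeq sequence has either of them. Positions below are counted from 1 at the 5′ end. Over the first 22 bases miR-200b-3p and miR-200c-3p differ at 2 (U11G and A22G, miR-200b-3p first), and miR-200a-3p and miR-141-3p differ at 2 (C17A and U22G, miR-200a-3p first). The way the authors' counting treated reads with mismatches was not given in the sources used here, so the split of reads between miR-200b-3p and the far rarer miR-200c-3p is uncertain. The listed lengths were 23 nt for miR-200a-3p, miR-200b-3p and miR-200c-3p and 22 nt for miR-429, whereas RefSeq gives 22, 22, 23 and 22 nt.

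The hairpins lie on the plus strand in GRCh38 (GENCODE release 29, a reference build, since the table names no build). On chromosome 1, MIR200B spans 1167104 to 1167198, MIR200A 1167863 to 1167952 and MIR429 1169005 to 1169087. These 3 hairpins fall within 1984 bp and overlap no other gene in that release. On chromosome 12, MIR200C spans 6963699 to 6963766 and MIR141 6964097 to 6964191, within 493 bp, both in introns of the lincRNA MIR200CHG.

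All 4 listed members were measured in every library, at levels that spanned more than 2 orders of magnitude. The libraries held 5322429 to 6014838 counts, and with a floor of 3 counts an entry at 0 could be as high as 0.499 to 0.564 TPM. TPM here is a count scaled to 1000000 counts of the library, with no division by length. Counts of different miRNAs also carry the efficiency with which each sequence was ligated and amplified, which these data do not measure. In bulk RNA, fewer cells with a miRNA and less of it per cell cannot be told apart.

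miR-200b-3p, the leading member, stood at 6671 and 6915 TPM in controls 1 and 2, against 6488 and 6467 TPM in apelin 1 and 2. It ranked 29 to 31 among the 516 listed catalogue miRNAs. Both apelin libraries lay below both controls, by a margin smaller than the gap between the controls.

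miR-200a-3p, the member with the other seed, stood at 906 and 903 TPM in controls 1 and 2, against 929 and 1216 TPM in apelin 1 and 2. It ranked 62 to 68. Apelin 2 stood apart, while apelin 1 lay close to the controls. The 95% Poisson intervals, which cover counting error only, overlapped, at 883 to 931 TPM in control 1 and 903 to 955 TPM in apelin 1.

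miR-429 stood at 336.5 and 438 TPM in controls 1 and 2, against 342 and 468 TPM in apelin 1 and 2. It ranked 85 to 100. The groups overlapped, and each group held 1 lower and 1 higher library. The 2 controls differed by 0.38 on the log2 scale, a larger gap than in 81.2% of the 213 tested catalogue entries.

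miR-200c-3p, the only listed member from chromosome 12, stood at 33.25 and 33.20 TPM in controls 1 and 2, against 25.9 and 22.98 TPM in apelin 1 and 2. These levels rest on 200 and 188 counts in the controls and on 138 and 131 counts with apelin. It ranked 169 to 183. Both apelin libraries lay below both controls, and the Poisson interval of apelin 1 (21.8 to 30.6 TPM) overlapped those of control 1 (28.8 to 38.2 TPM) and control 2 (28.6 to 38.3 TPM). The interval of apelin 2 (19.2 to 27.3 TPM) lay below both.

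**Figure D1:**
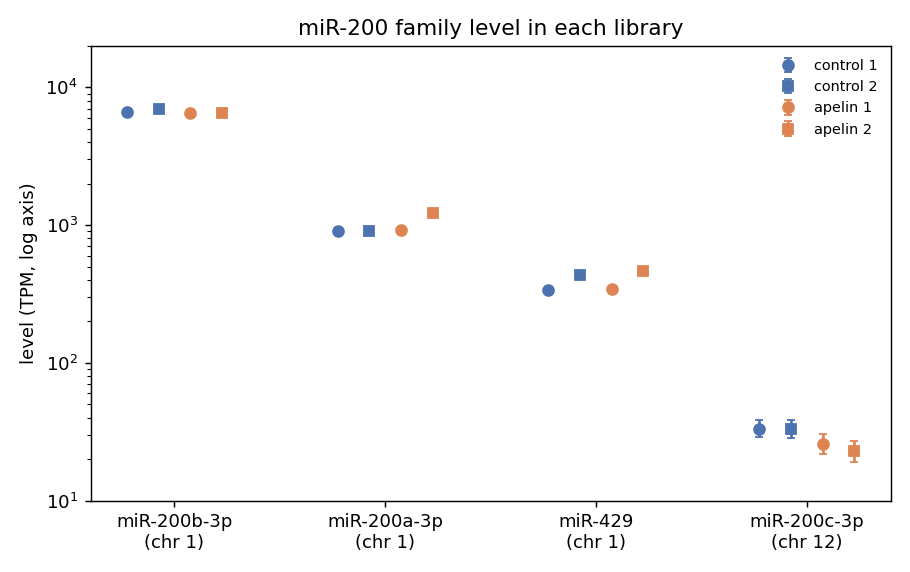
Level of each listed miR-200 family member (TPM, log axis) in controls 1 and 2 (blue) and apelin 1 and 2 (orange). Bars are 95% Poisson intervals and cover counting error only. miR-200b-3p lies between 6467 and 6915 TPM in all libraries and miR-200c-3p between 22.98 and 33.25 TPM.

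The order miR-200b-3p, miR-200a-3p, miR-429, miR-200c-3p held in all 4 libraries. Each member's lowest library lay above the highest library of the next, so no neighbours in the order overlapped. Dividing counts by the listed length and scaling to 1000000 left that order in place, with miR-200b-3p at 6278 to 6679 and miR-200c-3p at 22.3 to 32.3.

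The chromosome 1 cluster exceeded the chromosome 12 cluster in every library. Summed over miR-200a-3p, miR-200b-3p and miR-429, chromosome 1 gave 7914 and 8255 TPM in controls 1 and 2, and it gave 7759 and 8151 TPM in apelin 1 and 2. That is 238 and 249 times the miR-200c-3p count in the controls and 299 and 355 times in the apelin libraries. The log2 ratio of chromosome 12 to chromosome 1 averaged -8.14 (SD 0.26, n = 4 libraries). Since miR-141 was not analysed, the chromosome 12 sum is miR-200c-3p alone.

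Within the family, miR-200b-3p held 83.9% and 83.4% of the counts in controls 1 and 2, 83.3% in apelin 1 and 79.1% in apelin 2. The 95% Wilson interval in apelin 2 (78.7% to 79.5%) did not meet that of any other library, the nearest being 83.0% to 83.7% in apelin 1. Such intervals cover counting error only and not the spread between libraries. Those of the miR-429 share in controls 1 and 2 (4.06% to 4.42% and 5.09% to 5.49%) were also apart. miR-200c-3p held 0.418% and 0.401% in controls 1 and 2, and 0.33% and 0.281% in apelin 1 and 2. The whole family made up 0.795% and 0.829% of all counts in controls 1 and 2, and 0.778% and 0.817% in apelin 1 and 2.

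Ratios within a library need no scaling between libraries. As a percent of the miR-200b-3p count, miR-200a-3p stood at 13.6% and 13.1% in controls 1 and 2, 14.3% in apelin 1 and 18.8% in apelin 2. miR-429 stood at 5.04% and 6.33% in the controls and at 5.27% and 7.23% in apelin 1 and 2, on the same basis. miR-200c-3p stood at 0.498% and 0.480% in the controls and at 0.400% and 0.355% with apelin. Thus miR-200a-3p was set apart by apelin 2, miR-429 split each group by library, and miR-200c-3p was lower in both apelin libraries. Against its other cluster neighbour, miR-429 stood at 37.1%, 48.5%, 36.8% and 38.5% of the miR-200a-3p count in controls 1 and 2 and apelin 1 and 2, with control 2 the highest. So miR-429 did not keep a fixed proportion to either cluster neighbour even between the 2 controls. For miR-200a-3p as a percent of miR-200b-3p, the 95% Wilson intervals of the 2 controls overlapped. For miR-200c-3p, the interval of apelin 1 (0.338% to 0.472%) overlapped those of control 1 (0.434% to 0.573%) and control 2 (0.416% to 0.554%). That of apelin 2 (0.299% to 0.422%) overlapped control 2 but not control 1. These intervals cover counting error only.

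**Figure D2:**
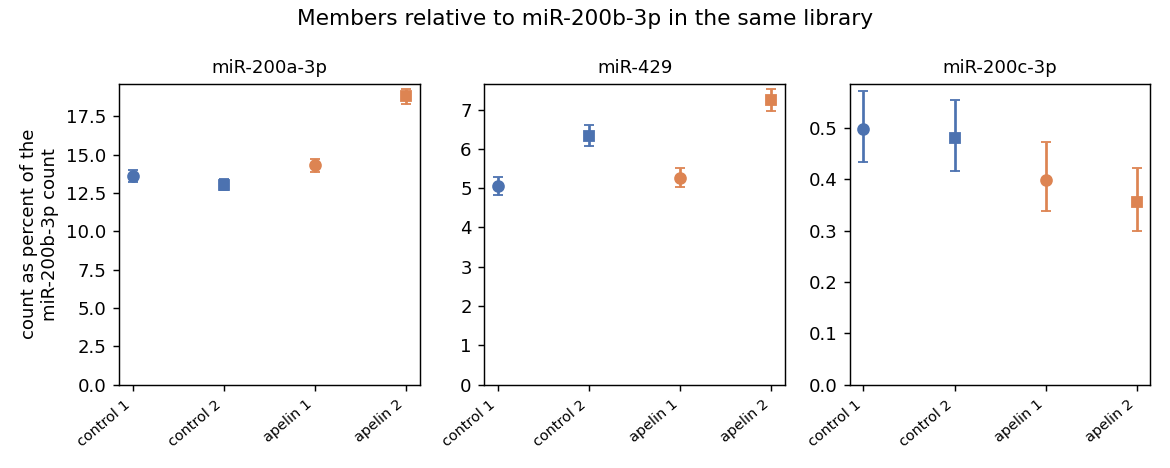
Count of miR-200a-3p, miR-429 and miR-200c-3p as a percent of the miR-200b-3p count in the same library, each panel on its own linear axis from 0. Bars are 95% intervals from the Wilson method and cover counting error only. Apelin 2 is highest for miR-200a-3p (18.8%), and both apelin libraries are lowest for miR-200c-3p (0.400% and 0.355%).

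Apelin was compared with control to find miRNAs that differ under the peptide, and no family member passed the test. edgeR's quasi-likelihood test called 0 of 263 tested entries (0%) at an adjusted p under 0.05, 0 of the 4 members among them, with 15 entries at an unadjusted p under 0.05. The members' log2 fold changes had a median of 0.024, beside -0.018 over all tested entries. The members' median was -0.20 without apelin 2 and 0.15 without apelin 1.

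miR-200c-3p had a log2 fold change of -0.42 (SE 0.20, 95% interval -1.06 to 0.22, edgeR adjusted p = 0.627), from 33.2 ± 0.035 TPM (SD, n = 2) in controls to 24.5 ± 2.1 TPM (SD, n = 2) with apelin. That control SD is far below counting error alone (Poisson interval 28.8 to 38.2 TPM in control 1), so it does not measure how controls vary. The SDs of miR-200a-3p in controls and of miR-200b-3p with apelin, given below, are also smaller than counting error. The miR-200c-3p estimate stayed between -0.48 and -0.33 over 14 alternative settings. DESeq2 called miR-200c-3p lower (log2 fold change -0.43, adjusted p = 0.0376), and it called 53 of 263 entries, or 20.2%, and 12.9% as lower. Of those 53 entries, 30 were at 0 in some library, which miR-200c-3p was not. The adjusted p of miR-200c-3p ran from 0.0376 to 0.974 over the 14 alternative settings.

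miR-200b-3p had a log2 fold change of -0.048 (SE 0.070, 95% interval -0.28 to 0.18, edgeR adjusted p = 0.830), from 6793 ± 172 TPM (SD, n = 2) to 6478 ± 15 TPM (SD, n = 2). Its interval was the narrowest of the 4 members and spans 0.83-fold to 1.13-fold. Without apelin 2 the estimate was -0.15.

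miR-200a-3p had a log2 fold change of 0.27 (SE 0.22, 95% interval -0.44 to 0.98, edgeR adjusted p = 0.667), from 904 ± 2.8 TPM (SD, n = 2) to 1073 ± 203 TPM (SD, n = 2). That direction rested on apelin 2, without which the estimate was -0.042. Without apelin 1 it was 0.47, still short of the threshold (adjusted p = 0.314).

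miR-429 had a log2 fold change of 0.096 (SE 0.28, 95% interval -0.80 to 0.99, edgeR adjusted p = 0.909), from 387 ± 72 TPM (SD, n = 2) to 405 ± 89 TPM (SD, n = 2). The direction changed with the libraries kept: -0.072 without control 1, 0.25 without control 2, 0.32 without apelin 1 and -0.26 without apelin 2.

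**Figure D3:**
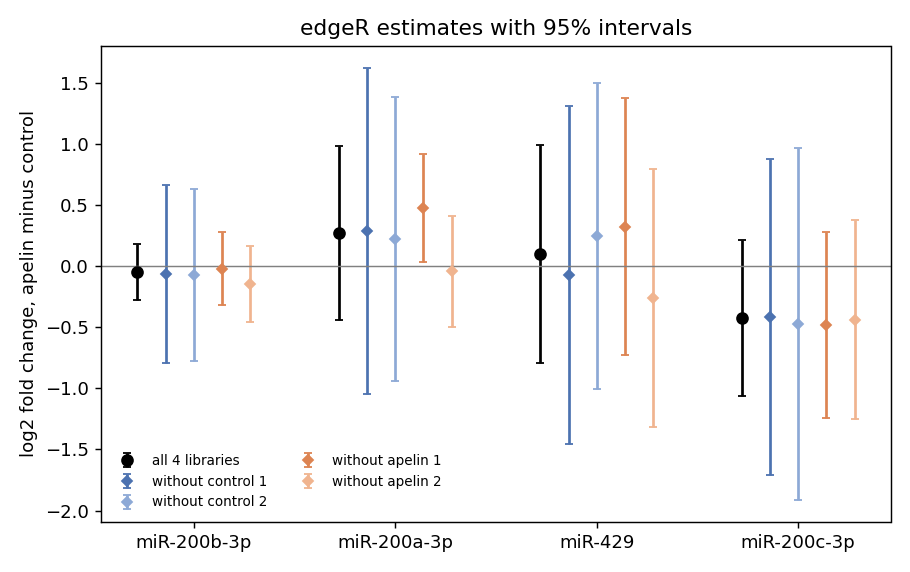
edgeR log2 fold change of each member, apelin minus control, with all 4 libraries (black circles) and with each library left out (coloured diamonds). Bars are 95% intervals. miR-200c-3p lies between -0.48 and -0.42 in all 5 fits shown. miR-200a-3p and miR-429 cross 0 when apelin 2 is left out, and miR-429 also does when control 1 is left out.

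In deposited TPM the groups were fully separated for 3 of the 4 members, against 38.4% of all tested entries. Of these, miR-200b-3p and miR-200c-3p were lower with apelin, as were 17.5% of all tested entries, and miR-200a-3p was higher, as were 20.9%. After edgeR's TMM scaling, a comparison added after seeing the data, the groups stayed apart for miR-200c-3p alone, beside 37.6% of all tested entries in either direction and 16.3% lower. On that scale miR-200c-3p stood at 33.9 and 32.1 in the controls and at 25.3 and 23.8 with apelin. miR-200b-3p in apelin 2 (6711) then lay between control 2 (6681) and control 1 (6808). miR-200a-3p in apelin 1 (907) lay between control 2 (872) and control 1 (925).

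The balance of the clusters and of the seeds was also compared between the groups. The chromosome 12 to chromosome 1 log2 ratio was -7.89 and -7.96 in controls 1 and 2 and -8.23 and -8.47 in apelin 1 and 2. The groups did not overlap, and the difference was -0.42 (exact permutation test, two-sided, p = 0.33, the smallest that 2 against 2 libraries can give). The log2 ratio of AAUACUG-seed to AACACUG-seed counts was 2.96 and 3.03 in controls 1 and 2 and 2.88 and 2.52 in apelin 1 and 2. That difference of -0.30 (exact permutation test, two-sided, p = 0.33) was -0.11 without apelin 2 and -0.48 without apelin 1. The family total differed by -0.025 on the log2 scale (exact permutation test, two-sided, p = 0.667), less than the spread within each group.

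The table holds no mRNA, so ZEB1, ZEB2 and E-cadherin were not measured and the mesenchymal label of PC-3 could be checked on miRNAs alone. A list of epithelial and anti-EMT miRNAs outside the family had 13 names, with miR-375-3p also entered under the name miR-375. Of the 13, 12 were listed (all but the name miR-375) and 10 reached a mean of 10 TPM. The most abundant were miR-182-5p and miR-183-5p, from a cluster common in epithelial and sensory cells, at 6821 to 9001 TPM and 5581 to 5654 TPM. Next came miR-101-3p, which represses the chromatin enzyme EZH2, at 381 to 725 TPM. miR-96-5p, from the miR-183 cluster, stood at 211 to 419 TPM. Prostate basal and luminal epithelium markers were lower, with miR-205-5p at 72.3 to 97.7 TPM and miR-375-3p at 12.1 to 17.7 TPM. miR-200b-3p thus stood in the range of miR-182-5p and miR-183-5p, and miR-200c-3p between miR-205-5p and miR-375-3p.

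The mesenchymal and pro-EMT list had 13 names, of which 11 were listed and 7 reached a mean of 10 TPM. Its levels ran from the top of the table to near 0. miR-21-5p (91403 to 168194 TPM), miR-100-5p (83399 to 95571 TPM), miR-222-3p (48692 to 53388 TPM) and miR-125b-5p (38186 to 51461 TPM) each exceeded miR-200b-3p in every library. So did miR-221-3p, at 42676 to 44186 TPM. miR-10b-5p, at 1847 to 2184 TPM, and miR-9-5p, at 298 to 399 TPM, lay below miR-200b-3p. The stromal miRNAs miR-143-3p, miR-199a-3p and miR-214-3p, which mark fibroblasts and smooth muscle, summed to 4.42 to 6.49 TPM, and miR-143-3p and miR-214-3p were at 0 in some library. The family was therefore present beside abundant miR-21-5p and miR-100-5p, with little of the stromal miRNAs, and these levels alone give no cell state.

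**Figure D4:**
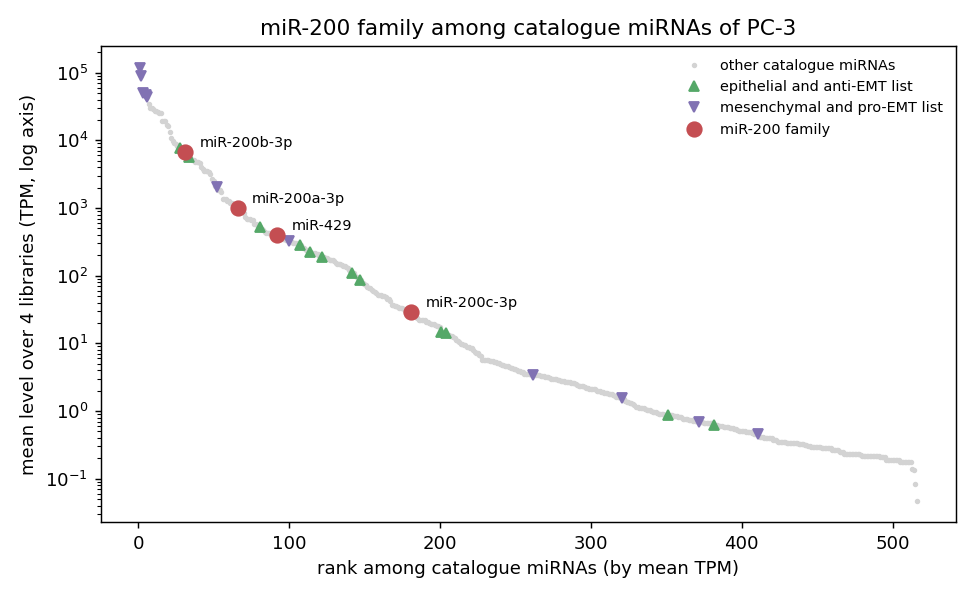
Mean level over the 4 libraries (TPM, log axis) of each of the 516 listed catalogue miRNAs against its rank, with the miR-200 family in red, the epithelial list as green triangles and the mesenchymal list as purple triangles. miR-200b-3p sits among the upper epithelial entries and miR-200c-3p far down the curve, at a mean of 28.8 TPM.

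With apelin, 0 of 10 tested epithelial and 0 of 7 tested mesenchymal entries were called in either direction by edgeR. The epithelial list had a median log2 fold change of 0.23, with 7 fitted values above 0 and 3 below. Both apelin libraries lay above both controls for 5 of the 10 (miR-34a-5p, miR-96-5p, miR-101-3p, miR-192-5p and miR-194-5p), beside 20.9% of all tested entries. They lay below both controls for 2, miR-205-5p (-0.30, SE 0.14) and miR-375-3p (-0.46, SE 0.21), beside 17.5%. These counts used deposited TPM, and overlap after TMM scaling was not examined for this list. Apelin 2 stood highest for miR-34a-5p, miR-96-5p and miR-101-3p (224, 419 and 725 TPM), with apelin 1 at 178, 274 and 509 TPM. For miR-34a-5p apelin 1 lay close to control 1 (176 TPM). miR-96-5p (0.63, SE 0.32) and miR-101-3p (0.60, SE 0.28) had the highest estimates of that list, and its least abundant tested entry, miR-148a-3p, had 0.23 (SE 0.37). The mesenchymal list had a median of 0.041, with 4 fitted values above 0 and 3 below. Markers of other cells were low, with the liver, muscle, white cell and endothelial lists (6 of 10 names listed) each summing to 13.7 TPM or less in every library. Of 3 names on the red cell list 1 was listed, and miR-451a and miR-144-3p were not. The listed one, miR-486-5p, measured 35.7 and 37.1 TPM in controls 1 and 2, against 33.8 and 28.2 TPM in apelin 1 and 2. The endothelial miR-126-3p went the other way in apelin 2, with 6.32 and 7.24 TPM in the controls, 6.95 TPM in apelin 1 and 13.7 TPM in apelin 2. The part of other cells in the miR-200c-3p difference was not tested.

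The profile over the 4 libraries was compared between miR-200b-3p and the 212 other tested catalogue miRNAs, as the root mean square difference of centred log2(TPM + 1). Nearest were miR-30c-5p (0.015), miR-25-3p (0.024) and miR-497-5p (0.027). The median over all 212 was 0.19. The other family members came at places 104 (miR-200c-3p, 0.19), 122 (miR-200a-3p, 0.21) and 125 (miR-429, 0.21). The 2 cluster partners of miR-200b-3p thus lay past the median. Since miR-200b-3p itself varied little (6467 to 6915 TPM), this difference mainly reflects how much each other miRNA varied. These places therefore do not show whether the cluster members vary together.

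The 2 loci have separate promoters, shown here because the listed members of the 2 clusters differ so much in level. Whether the promoters bear on that difference was not tested. The motif CACCTG, an E-box that ZEB1 can bind, was searched on both strands from 250 bases before to 50 after the start of each host RNA in RefSeq (GRCh38.p14, plus strand), and matches are in capitals.
MIR200BHG, chr1:1162627-1162926: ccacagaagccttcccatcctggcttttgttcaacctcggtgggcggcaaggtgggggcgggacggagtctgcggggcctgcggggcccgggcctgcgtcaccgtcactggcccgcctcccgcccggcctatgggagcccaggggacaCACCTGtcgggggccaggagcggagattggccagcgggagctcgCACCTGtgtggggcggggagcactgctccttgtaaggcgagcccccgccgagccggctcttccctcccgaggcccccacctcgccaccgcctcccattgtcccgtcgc
MIR200CHG, chr12:6962995-6963294: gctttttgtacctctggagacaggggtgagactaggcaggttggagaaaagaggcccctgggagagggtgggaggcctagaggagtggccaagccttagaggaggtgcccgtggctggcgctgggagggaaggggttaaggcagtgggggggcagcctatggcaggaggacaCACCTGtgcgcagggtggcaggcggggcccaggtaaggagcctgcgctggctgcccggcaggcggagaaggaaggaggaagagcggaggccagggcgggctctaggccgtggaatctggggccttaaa
The MIR200BHG window holds 2 matches, beginning 102 and 58 bases before the start site, and the MIR200CHG window holds 1, beginning 78 bases before it. All of them are on the plus strand. Of 35116 RefSeq promoter windows of 300 bases, 20.6% hold at least 1 such match and 3.49% at least 2. The MIR200B hairpin begins 4227 bp after the MIR200BHG start and the MIR200C hairpin 454 bp after the MIR200CHG start. These matches describe the sequence and do not show binding, which was not measured.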

How the data were processed

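The authors deposited 1 table with a raw read count and a TPM value for each mature miRNA entry and library, and a listed length in nt. The tools named are Trimmomatic 0.30, a read trimmer, and DESeq2, per the submitters' processing notes. The sources used here give no aligner, miRNA catalogue or build. The deposited TPM equals the count scaled to 1000000 counts of its library, within 0.151 TPM.

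Entries with a mean of at least 10 TPM were tested with edgeR 4.0.16 (quasi-likelihood, TMM scaling) in R 4.3.3, two-sided, with Benjamini-Hochberg adjustment over all 263. SEs were derived from the F statistic (size of the log2 fold change divided by its root). DESeq2 1.42.0, limma 3.58.1 on log2(TPM + 1), other minimums, scalings and pseudocounts, a replicate block and leaving out each library were alternatives. Ratios and sums of members were compared with exact permutation tests over libraries. The edgeR script was checked on counts simulated with 4-fold changes at a single dispersion of 0.029, taken from catalogue miRNAs above 0 in all libraries. It recovered 462 of 462 tested changes, and 4.5% of its calls were false. Changes as small as those fitted for the members were not simulated, so the check does not cover them. Entries with a larger spread between libraries were not simulated either. In the data the smallest edgeR adjusted p was 0.0687, and 0 calls there do not show that no entry changed 4-fold. Same-numbered libraries are not paired by the labels.

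Text names every member, the 4 most abundant entries of each EMT list and the 3 nearest profiles. Other entries (miR-205-5p, miR-375-3p, the other epithelial and mesenchymal entries, the stromal miRNAs, miR-126-3p and miR-486-5p) were named after their values were seen. Members and lists were chosen with earlier results of these data known. Sequences came from RefSeq. Other work used Python 3.11.15 with scipy 1.17.1, numpy 2.4.6, matplotlib 3.10.9 and pandas 2.3.3.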

Additional observations from a re-analysis of the deposited data

How the results depend on the processing

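edgeR called 0 entries in the planned test. There were 52 with no minimum, 4 with a minimum mean of 100 TPM, 53 with DESeq2, and 4, 5 and 4 with limma at pseudocounts of 1, 0.1 and 10. In the same order, 51, 4, 30, 4, 5 and 4 of these entries were at 0 in some library. Leaving out a library gave 0 to 19. With DESeq2 miR-200c-3p was called (log2 fold change -0.43). miR-200c-3p was below the minimum of 100 TPM and has no value there. With all libraries kept, no member's direction changed in any setting run. With a library left out, miR-429 ran from -0.26 to 0.32 (-0.072 without control 1 and -0.26 without apelin 2), miR-200a-3p from -0.042 (without apelin 2) to 0.47, and the family total difference from -0.060 to 0.010 (0.0054 without control 2 and 0.010 without apelin 1). In those fits 1 group has a lone library, which is assumed to vary like the other group. The mean chromosome 12 to chromosome 1 log2 ratio was -5.54 with the mean of log2(TPM + 1) in place of the sum. A mean of logs neither adds up the chromosome 1 members nor weights them by level. The number of members whose groups did not overlap was 3, and 1 with TMM-scaled TPM. With a replicate block edgeR called 0 of 263 entries and miR-200c-3p was -0.42 (adjusted p = 0.283). Same-numbered deviations correlated at 0.220 over 271 catalogue miRNAs above 0 in all libraries. No arm ratio was computed, since no family hairpin had both arms listed. Except where given above, the cause was not tested. miR-200c-3p rests on 131 to 200 counts per library, which limits its precision.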
